A study of Mus musculus with 9 samples.

Results

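The 9 genes described here encode the glycine receptor, its scaffold and the transporters that set the chloride gradient it works on: the glycine receptor subunits Glra1, Glra2, Glra3 and Glrb, the scaffold gephyrin (Gphn), the chloride importer NKCC1 (Slc12a2) and the potassium-chloride exporters KCC2 (Slc12a5), KCC1 (Slc12a4) and KCC4 (Slc12a7). They were taken by gene symbol through their Ensembl identifiers, and all 9 were among the 45706 genes of the count table and among the 17971 that passed the filter on low counts. RNA was sequenced from the central nervous system of C57BL6/J mice with no transgene or treatment recorded, as 3 whole-tissue libraries at each of 3 stages. The stages were E9.5 and E14.5 (E for embryonic day) and P60 (postnatal day 60). At E9.5 the tissue was the embryonic head, severed caudal to the fourth ventricle, from which tissue outside the neuroectoderm had been trimmed. At E14.5 it was the brain without its meninges, and at P60 the adult tissue taken from the skull after perfusion with buffered saline under ketamine and xylazine. Tissue boundaries therefore differed between the stages, and age and dissection cannot be told apart in any comparison below. Since nothing in the labels ties the libraries of a stage to separate animals, the spread behind each p-value is that of these libraries alone and may be technical.

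Glycine receptors are chloride channels built from alpha subunits, which bind glycine, and the beta subunit, which binds gephyrin and so anchors the receptor at inhibitory synapses. The alpha2 subunit is known from the immature nervous system, where receptors without beta lie outside synapses, whereas alpha1 with beta forms the strychnine-sensitive receptor of the adult brainstem and spinal cord. Whether the open channel excites or inhibits a neuron depends on its chloride gradient: NKCC1 loads chloride into the cell, and KCC2, a neuronal protein, extrudes it. KCC1 and KCC4 use the same gradients mainly in the control of cell volume and in epithelial transport.

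Levels are given in CPM, a gene's reads per 1000000 reads of the library total after TMM scaling. Changes are log2 fold changes from a single edgeR quasi-likelihood fit of the 9 libraries. The test was two-sided, and p-values were adjusted by the Benjamini-Hochberg method over all 17971 genes, with a threshold of 0.05. A gene is said to rise or fall only where it passed that test. Because the tissue is bulk, fewer cells of a type and less RNA per cell cannot be told apart.

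The bases just before RefSeq start sites of Slc12a5, Glra2, Glrb and Slc12a7, 4 of the genes with large changes, are shown beside the values. Glra3, whose first RefSeq bases lie outside its GENCODE exons, is described without its letters. The printed bases come from RefSeq (build GRCm38.p6) and run 5′ to 3′ on the strand of the gene. They cover the 250 bases that precede the RefSeq start. Capitals mark matches on either strand to the GC box (GGGCGG), the Egr site (GCGNGGGCG), the TATA box (TATAAA) and the CCAAT box (CCAAT). Slc12a5 has 2 annotated starts, and the upstream one lies at chr2:164960596-164960845 (+) and the downstream one at chr2:164967738-164967987 (+). The window of Glra2 is chrX:165327394-165327643 (-) and that of Glrb chr3:80913661-80913910 (-). Slc12a7 also has 2 annotated starts, and the window printed is chr13:73763447-73763696 (+). By GENCODE positions, the Slc12a7 window, the downstream Slc12a5 window and the Gphn window described below lie inside their genes. The upstream Slc12a5 window runs past the GENCODE start of the gene (164960802). These windows can therefore hold bases transcribed from other starts.
Slc12a5, upstream start: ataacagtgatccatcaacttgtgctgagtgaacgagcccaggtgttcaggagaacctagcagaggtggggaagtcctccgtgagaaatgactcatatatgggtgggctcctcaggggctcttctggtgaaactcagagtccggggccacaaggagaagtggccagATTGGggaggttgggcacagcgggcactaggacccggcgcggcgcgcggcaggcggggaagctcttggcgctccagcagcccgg
Slc12a5, downstream start: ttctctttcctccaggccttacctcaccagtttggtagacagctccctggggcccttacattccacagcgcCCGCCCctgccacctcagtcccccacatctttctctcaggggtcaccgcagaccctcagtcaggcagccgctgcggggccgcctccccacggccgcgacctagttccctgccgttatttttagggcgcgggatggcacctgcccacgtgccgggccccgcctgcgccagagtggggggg
Glra2: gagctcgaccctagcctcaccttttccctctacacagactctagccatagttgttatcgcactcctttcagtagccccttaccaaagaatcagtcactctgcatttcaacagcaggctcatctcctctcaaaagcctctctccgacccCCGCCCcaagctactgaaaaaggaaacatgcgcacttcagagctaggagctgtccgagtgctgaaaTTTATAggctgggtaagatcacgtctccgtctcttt
Glrb: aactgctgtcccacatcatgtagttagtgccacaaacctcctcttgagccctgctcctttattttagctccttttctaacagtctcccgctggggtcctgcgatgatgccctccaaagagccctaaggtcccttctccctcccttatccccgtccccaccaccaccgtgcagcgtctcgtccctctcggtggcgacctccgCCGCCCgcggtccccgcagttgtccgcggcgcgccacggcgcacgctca
Slc12a7: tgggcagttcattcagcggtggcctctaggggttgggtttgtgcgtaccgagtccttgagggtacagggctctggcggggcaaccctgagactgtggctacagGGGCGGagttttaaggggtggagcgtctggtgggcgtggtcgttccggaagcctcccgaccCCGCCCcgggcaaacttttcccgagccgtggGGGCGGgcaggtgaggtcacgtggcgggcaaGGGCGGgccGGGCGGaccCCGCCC

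The windows differed in base composition. The printed Slc12a7 window held 6 GC boxes and 21 CpG dinucleotides with a GC content of 68.8%. The other Slc12a7 window (chr13:73763410-73763659), which overlaps it, held 3 GC boxes and 15 CpG with 63.6% GC. Glra2 had the least GC-rich of the 5 printed windows, at 50.4% with 8 CpG. Its match to the TATA box began 36 bases before the start and lay on the opposite strand, so the gene's strand reads TTTATA. It also had 1 GC box further upstream. Glrb had 20 CpG and 1 GC box. The upstream window of Slc12a5 held 13 CpG and a CCAAT box and no GC box, and the downstream one 16 CpG and 1 GC box. Over all 32851 RefSeq windows of the same length, the median was 6 CpG and 52.4% GC. A GC box was present in 32.7% of them, a CCAAT box in 33.9%, a TATA box in 12.4% and an Egr site in 4.70%. No Egr site was found in the 5 printed windows, which says only that these letters are absent there. Among the members' other windows, Glra3 (chr8:55940168-55940417) had an Egr site that overlaps its GC box, 2 CCAAT boxes and 4 CpG. Gphn (chr12:78226405-78226654) had 34 CpG and 77.2% GC with 1 GC box, and Slc12a4 (chr8:105966116-105966365) had 13 CpG and 3 GC boxes.

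The libraries held between 30481975 and 35619093 counts. In each stage 1 library stood apart from the other 2 (E9.5 replicate 1, E14.5 replicate 1 and P60 replicate 2), and each fitted change was also computed without these 3. They differed in how long and short transcripts were represented: against the other libraries of its stage, the median log2 level of 2022 genes with transcripts of at least 6 kb, minus that of 1149 genes with transcripts of at most 1.5 kb, was -1.11 in E14.5 replicate 1, 1.06 in P60 replicate 2 and -0.53 in E9.5 replicate 1. The 8 neuronal markers (Snap25, Syt1, Tubb3 and others) summed to 233 to 268 CPM at E9.5, 5240 to 6287 CPM at E14.5 and 6049 to 6976 CPM at P60. The 6 progenitor markers summed to 1308 to 1598, 1815 to 2589 and 189 to 212 CPM in the same order, the 6 astrocyte markers to 18.6 to 19.5, 278 to 318 and 3581 to 3756 CPM, and the 7 oligodendrocyte markers to 63.8 to 66.3, 80.1 to 113 and 13801 to 16073 CPM. Microglial markers (5 genes) summed to 1.79 to 3.45, 46.4 to 54.2 and 273 to 312 CPM, and endothelial markers (5 genes) lay between 150.3 and 254 CPM throughout. Outside the neural lineage, mesenchyme and neural crest markers (8 genes) summed to 621 to 752 CPM at E9.5, 321 to 652 CPM at E14.5 and 44.1 to 78.9 CPM at P60, surface ectoderm markers (6 genes) to 197 to 301, 12.8 to 14.4 and 6.93 to 13.6 CPM, and erythroid markers (5 genes) to 4117 to 5599, 163 to 321 and 0.822 to 1.57 CPM. Of the 8 mesenchyme and neural crest markers, 1 rose and 7 fell from E9.5 to E14.5, and again from E14.5 to P60. Col1a1 rose to E14.5 (means of 67.0 and 170 CPM), and Sox10 rose to P60 (5.13 and 40.8 CPM). Sox10 made 37.4, 56.9 and 28.1 CPM in the adult libraries, so their sums rest mostly on 1 gene. Heart and muscle markers (6 genes) reached 340 CPM in E9.5 replicate 1 against 5.67 and 5.36 CPM in the other 2 E9.5 libraries.

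From E9.5 to E14.5, 5 of the 9 genes rose (Glra2, Glra3, Glrb, Gphn, Slc12a5), 2 fell (Slc12a4, Slc12a7) and 2 did not pass the test (Glra1, Slc12a2), when 64.6% of all genes tested passed it, 34.0% higher and 30.7% lower. From E14.5 to P60, 6 rose, 2 fell (Glra2, Slc12a7) and Glra1 did not pass, against 76.1% of all genes, 36.7% higher and 39.4% lower. Between E9.5 and P60, again 6 rose, 2 fell (Slc12a4, Slc12a7) and Glra1 did not pass, against 82.6% of all genes, 42.0% higher and 40.6% lower. These shares are near the background, so that most of the members moved is no property of this set. What set the genes apart from one another was the direction and the size of the steps: 4 members rose in both (14.8% of all genes did), Slc12a7 fell in both (14.6%), Glra2 rose and then fell (11.5%) and Slc12a4 fell and then rose (8.59%). The median log2 change of the 9 was 0.87 in the first step and 0.56 in the second, where that of all genes was 0.03 and -0.06. The libraries of 2 consecutive stages did not overlap for 6 of the 9 genes in the first step (72.1% of all genes) and for 8 in the second (76.3%), and those of E9.5 and P60 did not for 8 (84.9%). An F test over the 3 stages passed for the same 8, all but Glra1, and for 91.5% of all genes.

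**Figure D1:**
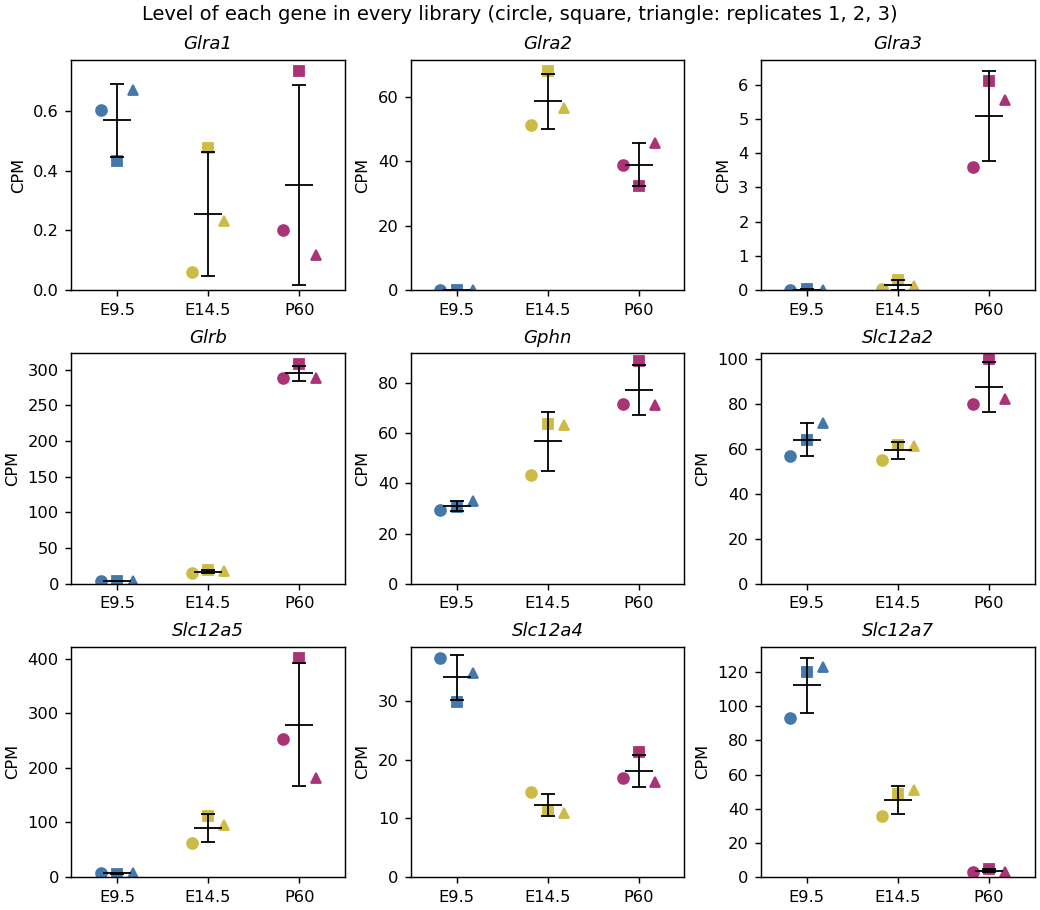
CPM of each of the 9 genes (vertical axis, own scale per panel) in every library, by stage, with the stage mean and SD (n = 3) in black. Glra2 was near 0 at E9.5 and highest at E14.5, Glrb and Slc12a5 were highest at P60, Slc12a7 fell at each step, and the 3 stages of Glra1 overlapped under 1 CPM.

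Glra2 (ENSMUSG00000018589, chrX:165129017-165327393, minus strand, build GRCm38), the subunit of the immature receptor, went from barely detected to the most abundant alpha subunit. At E9.5 the libraries held 0.134, 0.0332 and 0.0319 CPM, which were 4, 1 and 1 reads. At E14.5 they held 51.3, 68.1 and 56.5 CPM, and at P60 38.8, 32.5 and 45.9 CPM. No library of a stage overlapped with those of another, and every P60 library lay below every E14.5 library. The first step was a log2 change of 9.72 ± 0.35 (SE, edgeR adjusted p = 1.1e-08), and the second a fall of log2 -0.59 ± 0.19 (edgeR adjusted p = 0.017). Glra2 was thus 1.5-fold lower in the adult than at E14.5 and still far above E9.5 (log2 9.13 ± 0.35, edgeR adjusted p = 1.9e-09). The second step was small enough to depend on the scaling and on single libraries: it lost its call under upper quartile scaling (log2 -0.42, adjusted p = 0.082), without E14.5 replicate 2 (-0.47, adjusted p = 0.075) and without P60 replicate 1 (-0.59, adjusted p = 0.053). Without E9.5 replicate 1, which held 4 of the 6 reads of that stage, the first step was 10.67.

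Glra1 (ENSMUSG00000000263, chr11:55514238-55608198, minus strand), the subunit of the adult brainstem and spinal cord receptor, stayed under 1 CPM in every library. The E9.5 libraries held 0.602, 0.431 and 0.670 CPM, those of E14.5 0.0603, 0.476 and 0.230 CPM, and those of P60 0.200, 0.734 and 0.118 CPM. All 3 stages overlapped, and P60 replicate 2 alone held 25 of the 35 adult reads. No step passed the test (first step log2 -1.13 ± 0.69, edgeR adjusted p = 0.17; second step 0.45 ± 0.72, edgeR adjusted p = 0.58). The adult level was not distinguishable from that of E9.5 (log2 -0.68 ± 0.66, edgeR adjusted p = 0.36), but without P60 replicate 2 it was lower (log2 -1.82, adjusted p = 0.034), and the second step then changed sign (-0.70, adjusted p = 0.40). Part of the 2414 bases of Glra1 exons, 5.84%, overlaps an antisense gene that held 1 read in all libraries.

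Markers of the region where Glra1 is known to act were measured beside it. The 12 genes of hindbrain and cervical cord position (Egr2 and Hox genes such as Hoxa2, Hoxb2 and Hoxb4) summed to 17.9, 3.62 and 9.32 CPM in the E9.5 libraries and to 0.362, 4.37 and 0.949 CPM in those of E14.5. At P60 they summed to 1.63 to 2.41 CPM, of which Egr2, also a gene induced by neuronal activity, made 1.53 to 2.20 CPM, and 4 of the 12 had no read in any adult library. The glycine transporter of glycinergic terminals, Slc6a5 (GlyT2), stood at 0.0904, 3.39 and 1.15 CPM at E14.5 and at 0.433, 0.117 and 0.118 CPM at P60. E14.5 replicate 2, the library with the most Slc6a5 and the most hindbrain position markers, was also the E14.5 library with the most Glra1 and Glra3. P60 replicate 2, which had the most Glra1 among the adult libraries, had the highest sum of position markers and not the most Slc6a5. How much of the brainstem each sample held was not tested.

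Glra3 (ENSMUSG00000038257, chr8:55940460-56130070, plus strand), an alpha subunit known from retina and the dorsal horn, was an adult transcript here, though at a low level. It had 0, 1 and 0 reads at E9.5 and 1, 11 and 4 reads at E14.5, which is 0.0301, 0.308 and 0.115 CPM. At P60 it reached 3.60, 6.11 and 5.54 CPM, so that the lowest adult library lay far above the highest E14.5 library. The second step was a log2 change of 5.02 ± 0.52 (edgeR adjusted p = 6.4e-06) and kept its call without each library, at 4.55 to 6.03. The first step rests on 1 read against 16: the ratio of pooled reads was 14.1, with an exact 95% interval of 2.19 to 591 that covers counting error only. Its fitted value passed the test (log2 3.41 ± 1.14, edgeR adjusted p = 0.022), yet the libraries of the 2 stages overlapped. The call was lost without E9.5 replicate 1 (adjusted p = 0.0695), E9.5 replicate 3 (0.0687) or E14.5 replicate 2 (0.097).

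Levels of different genes were compared per kilobase of annotated exon. Dividing by length does not remove the differences between libraries in long and short transcripts described above. On this scale the alpha subunits including Glra4 (a subunit gene that did not pass the filter on low counts) summed to 0.404 ± 0.0693 CPM per kb at E9.5, 18.8 ± 2.83 at E14.5 and 13.2 ± 1.92 at P60 (SD, n = 3). Glra2 made 99.1% ± 0.430 of that sum at E14.5 and 93.7% ± 2.89 at P60 (SD, n = 3). Most of the difference went to Glra3, whose share went from 0.0805% ± 0.0671 to 4.26% ± 1.43 (SD, n = 3) with no overlap between the libraries of these stages. Glra1 held 0.526% ± 0.374 at E14.5 and 1.21% ± 1.27 at P60 (SD, n = 3), a difference inside the spread, and Glra4 0.282% ± 0.0314 and 0.843% ± 0.650. At E9.5, Glra1 (58.0% ± 5.66) and Glra4 (36.3% ± 9.53) made most of a sum that was near 0, so these shares rest on 52 and 27 reads over the 3 libraries.

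**Figure D2:**
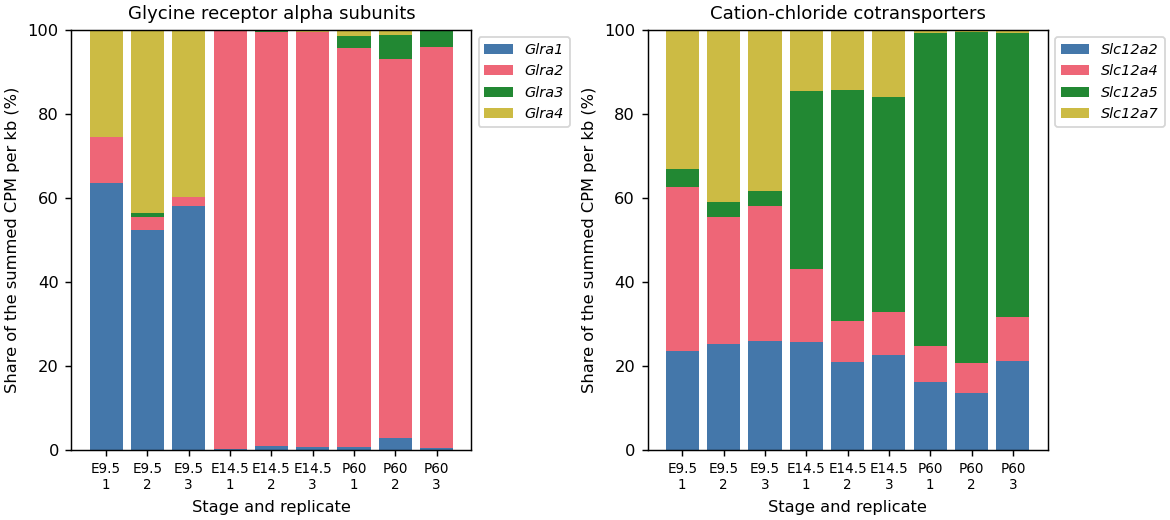
Share of each gene in the summed CPM per kb of exon of the 4 glycine receptor alpha subunits (left) and of the 4 cation-chloride cotransporters among the 9 genes (right), in percent, 1 bar per library. Glra2 made over 90% of the alpha sum in every E14.5 and P60 library, while the E9.5 bars on the left split a sum of only 0.404 CPM per kb; on the right Slc12a5 went from 3.86% at E9.5 to 73.7% at P60 and Slc12a7 from 37.5% to 0.571%.

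Glrb (ENSMUSG00000028020, chr3:80843599-80913660, minus strand), the subunit that ties the receptor to gephyrin, followed another course than Glra1 and Glra2. It was already present at E9.5, with 3.45, 3.05 and 3.70 CPM, when Glra2 was at most 0.134 CPM. At E14.5 the libraries held 14.1, 18.9 and 17.1 CPM and at P60 288, 308 and 289 CPM. The libraries of each stage lay close together and far from the other stages. The second step was the larger, at log2 4.14 ± 0.16 (17.6-fold, edgeR adjusted p = 8.2e-09) after 2.30 ± 0.16 (4.92-fold, edgeR adjusted p = 4.1e-07). Both calls were the same without each library and under each scaling. At E14.5, Glrb stood at 3.59 ± 0.519 CPM per kb, below the alpha sum of 18.8, and at P60 at 63.3 ± 2.39 CPM per kb, above the alpha sum of 13.2 (SD, n = 3). Every adult library had more Glrb than all alpha subunits together, and every E14.5 library had less.

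Gephyrin (Gphn, ENSMUSG00000047454, chr12:78226379-78684772, plus strand) clusters glycine and GABA-A receptors, and in every tissue also completes the molybdenum cofactor. Its levels moved little in comparison: 29.4, 30.5 and 33.1 CPM at E9.5, 43.3, 63.8 and 63.4 CPM at E14.5 and 71.8, 89.0 and 71.2 CPM at P60. The stages did not overlap, and E14.5 replicate 1 was the lowest and P60 replicate 2 the highest of their stages. The first step was a log2 rise of 0.87 ± 0.17 (edgeR adjusted p = 0.0011). The second was 0.44 ± 0.17 (edgeR adjusted p = 0.035), and it was not called with library totals (0.30, adjusted p = 0.15), without any 1 of E9.5 replicates 1, 2 and 3, E14.5 replicate 1 and P60 replicates 1 and 2 (0.28 to 0.48), or without the 3 libraries that stood apart (0.14, adjusted p = 0.079). The rise over both steps, 1.32 ± 0.18 (2.49-fold, edgeR adjusted p = 3.2e-05), kept its call in each of these settings.

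**Figure D3:**
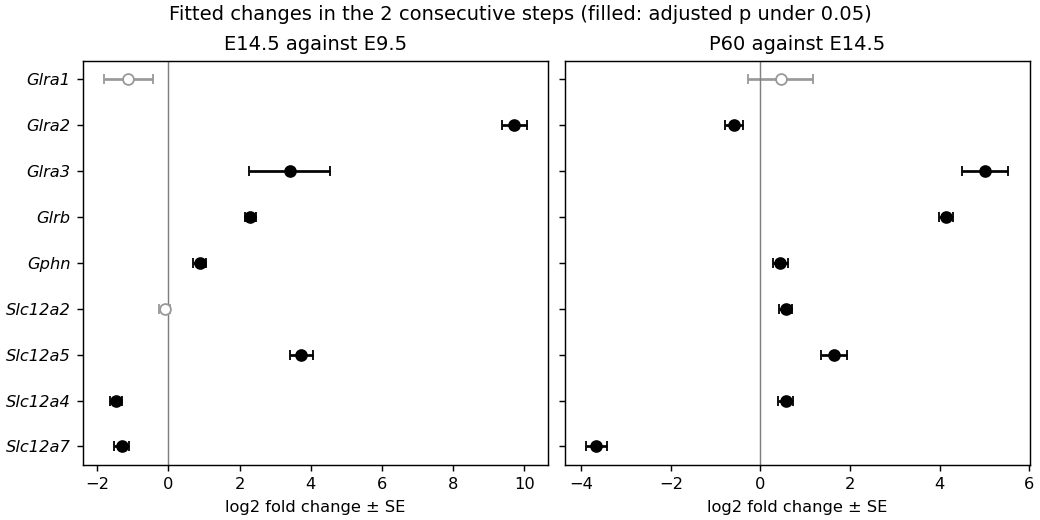
Fitted log2 fold change with its SE for each gene from E9.5 to E14.5 (left) and from E14.5 to P60 (right); filled points passed the edgeR test at an adjusted p of 0.05. Glra2 had the largest first step (9.72) and a small fall in the second (-0.59), Glra3 (5.02) and Glrb (4.14) had the largest second steps, and Slc12a7 fell by the most in the second (-3.66).

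Slc12a5 (ENSMUSG00000017740, chr2:164960802-164999731, plus strand), which encodes the neuronal chloride exporter KCC2, rose in both steps. The E9.5 libraries held 7.20, 6.07 and 7.02 CPM, those of E14.5 62.4, 112 and 95.3 CPM, and those of P60 253, 402 and 181 CPM. No library of a stage reached another stage. The rise to E14.5 was log2 3.73 ± 0.32 (13.3-fold, edgeR adjusted p = 2.2e-06), and that to P60 1.63 ± 0.29 (3.10-fold, edgeR adjusted p = 3.7e-04). Neuronal markers summed to at least 5240 CPM in every E14.5 library against at most 268 CPM in any E9.5 library, so the first step went along with their rise, and the share of it that this accounts for was not tested. Between E14.5 and P60 the neuronal sums were 5240 to 6287 and 6049 to 6976 CPM, but 4 of the 8 markers rose and 4 fell. Snap25 rose from 103 to 3149 CPM and Syt1 from 138 to 884 CPM on average, while Tubb3 fell from 2665 to 629 CPM and Elavl3 from 683 to 109 CPM. Their part in the second rise of Slc12a5 was not tested.

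The spread of Slc12a5 within the 2 later stages went with the trend in transcript length. Its longest annotated transcript has 6028 bases, and it was lowest in E14.5 replicate 1 and highest in P60 replicate 2, the libraries poor and rich in long transcripts. At E9.5 it was highest in replicate 1, the library of that stage poor in long transcripts. Without the 3 libraries that stood apart, the second step was 1.04 (adjusted p = 2.3e-04), a fold change 1.5 times smaller, and the first was 4.02. Across all genes with transcripts of at least 6 kb the median second step was -1.19, and for those of at most 1.5 kb it was 0.89. Of the 4 members with a transcript above 6 kb, Slc12a5, Glra3 and Slc12a2 rose from E14.5 to P60 against that median, and Slc12a7 fell.

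Slc12a2 (ENSMUSG00000024597, chr18:57878678-57946821, plus strand), which encodes the importer NKCC1, differed least between stages among the genes that passed the test. It stood at 57.0, 63.9 and 71.5 CPM at E9.5, at 55.1, 61.8 and 61.2 CPM at E14.5 and at 80.2, 100.2 and 82.3 CPM at P60. The embryonic stages overlapped, and all 3 adult libraries were above both. The first step was log2 -0.11 ± 0.14 (edgeR adjusted p = 0.52), the second 0.56 ± 0.14 (1.47-fold, edgeR adjusted p = 0.0044). The adult level also exceeded that at E9.5 (log2 0.45 ± 0.14, edgeR adjusted p = 0.013), a call that was lost without E9.5 replicate 1 (0.37, adjusted p = 0.064). NKCC1 is known from choroid plexus, oligodendrocyte precursors and glia as well as neurons, and the 6 choroid plexus markers (Ttr and others) summed to 135 to 166 CPM at E9.5, 489 to 762 CPM at E14.5 and 1994, 3757 and 4639 CPM in the adult replicates 1, 2 and 3. Most of the E9.5 sum was Otx2 (117 to 151 CPM), where Ttr was at most 1.47 CPM. Otx2 went the other way from the sum, with means of 133, 54.9 and 11.7 CPM at the 3 stages. Nearly all of the adult sum was Ttr. Ttr itself was highest in replicate 3 (4557 CPM). The other 5 markers (Folr1, Kl, Kcnj13, Clic6 and Otx2) were highest of the adult libraries in replicate 2, as Slc12a2 was. Replicate 2 was also the adult library rich in long transcripts, and the longest annotated transcript of Slc12a2 has 6520 bases. The part of glia and choroid plexus in the rise of Slc12a2 was not tested.

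The balance of the exporter Slc12a5 over the importer Slc12a2 moved with stage in every library. The log2 ratio of Slc12a5 to Slc12a2 (each CPM plus 0.5) was -2.90, -3.29 and -3.26 in the E9.5 libraries. It was 0.18, 0.85 and 0.63 in those of E14.5, and 1.65, 2.00 and 1.13 in the adult. The sign turned between E9.5 and E14.5, and no 2 stages overlapped. An exact permutation test, in which the F statistic was recomputed for each of the 1680 ways to place 9 libraries in 3 stages, gave p = 0.0036, the smallest it can give, and 0.0054 after Benjamini-Hochberg adjustment over the 6 pairs of genes examined. A ratio of 2 genes in CPM carries their lengths, so its sign by itself does not say which had more transcripts. Per kilobase of exon, Slc12a5 stood at 0.908 ± 0.0814, 12.1 ± 3.38 and 37.4 ± 15.2 CPM per kb at the 3 stages and Slc12a2 at 5.87 ± 0.667, 5.44 ± 0.339 and 8.02 ± 1.01 (SD, n = 3). The ratio moved almost wholly through Slc12a5, since Slc12a2 differed by at most 1.47-fold between stages.

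**Figure D4:**
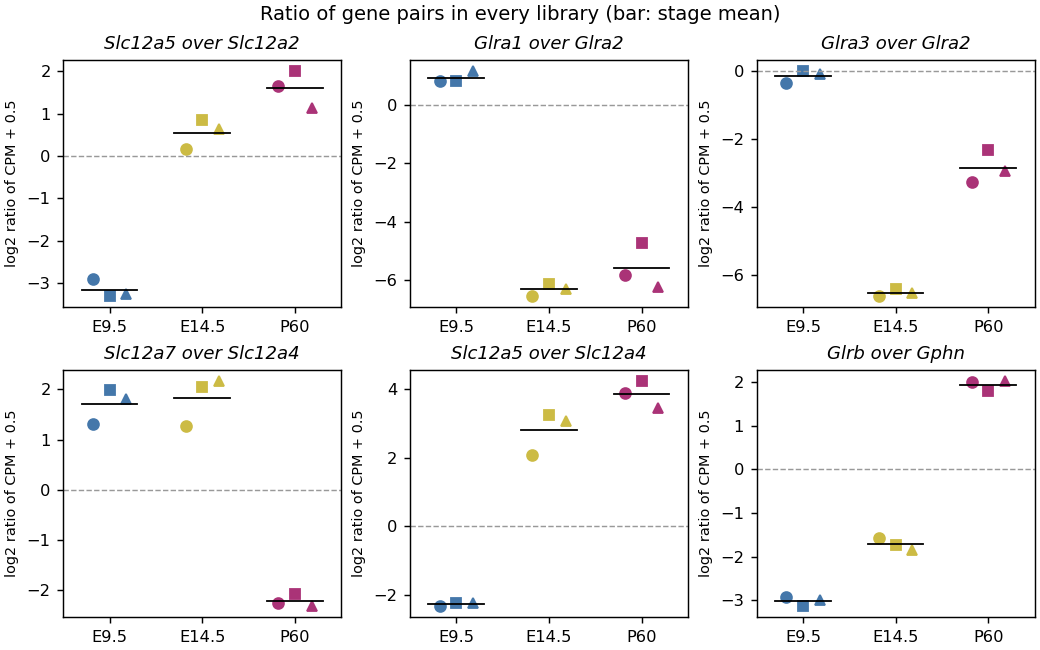
The log2 ratio of CPM plus 0.5 for 6 pairs of genes in every library by stage, with the stage mean as a bar and equality as a dashed line. Slc12a5 over Slc12a2 rose from a mean of -3.15 at E9.5 through 0.55 to 1.59 at P60, and Slc12a7 over Slc12a4 lay near 1.70 and 1.83 in the embryonic stages and at -2.22 in the adult.

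Both other exporters among the 9 genes had their highest level at E9.5. Slc12a7 (ENSMUSG00000017756, chr13:73733094-73816754, plus strand), which encodes KCC4, was at 93.4, 120.4 and 123 CPM at E9.5, at 35.8, 48.7 and 50.7 CPM at E14.5 and at 3.13, 4.64 and 2.89 CPM at P60. Every stage lay wholly below the one before. Its falls were log2 -1.32 ± 0.21 (2.49-fold, edgeR adjusted p = 2.1e-04) and -3.66 ± 0.23 (12.7-fold, edgeR adjusted p = 1.8e-07). Surface ectoderm and erythroid markers were also highest at E9.5, and progenitor markers were low at P60 only, as given above. Sums of the mesenchyme and neural crest markers overlapped between E9.5 and E14.5 and were lowest at P60. The part of all these cell types in the fall of Slc12a7 was not tested.

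Slc12a4 (ENSMUSG00000017765, chr8:105943590-105966097, minus strand), which encodes the widely expressed KCC1, stood at 37.5, 29.9 and 34.9 CPM at E9.5. At E14.5 it was highest in replicate 1, with 11.4 and 11.0 CPM in the other 2 and a mean of 12.3 ± 1.93 CPM (SD, n = 3), and at P60 it was at 16.9, 21.3 and 16.3 CPM. All E14.5 libraries lay below those of both other stages. It fell by log2 -1.47 ± 0.17 (2.77-fold, edgeR adjusted p = 2.3e-05) and then rose by 0.56 ± 0.17 (1.48-fold, edgeR adjusted p = 0.011) without regaining its first level (P60 against E9.5 -0.91 ± 0.17, edgeR adjusted p = 4.2e-04). The later rise was at an adjusted p of 0.051 without E14.5 replicate 3. An antisense gene with 23 reads in all libraries overlaps 8.44% of its exons.

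The pair ratio of Slc12a7 to Slc12a4 was 1.70 ± 0.354 at E9.5 and 1.83 ± 0.482 at E14.5 (log2, SD, n = 3), which overlapped, and -2.22 ± 0.119 at P60. The exact permutation test over the 3 stages gave p = 0.021 (0.021 adjusted over the 6 pairs). Slc12a5 over Slc12a4 went from -2.25 ± 0.0482 through 2.79 ± 0.633 to 3.84 ± 0.390, and Glrb over Gphn from -3.01 ± 0.103 through -1.72 ± 0.138 to 1.93 ± 0.128, both without overlap (exact permutation p = 0.0036 each, 0.0054 adjusted). Among the receptor subunits, Glra3 over Glra2 was -0.14 ± 0.177, -6.52 ± 0.102 and -2.84 ± 0.479 (exact permutation p = 0.0036, 0.0054 adjusted). Glra1 over Glra2 was 0.91 ± 0.194, -6.32 ± 0.199 and -5.59 ± 0.769, and its E14.5 and P60 libraries overlapped (exact permutation p = 0.0071, 0.0085 adjusted). In both of these last ratios the first gene was under 1 CPM at E9.5 and E14.5, as were Glra1 at P60 and Glra2 at E9.5, so that the 0.5 CPM added sets much of these values.

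In CPM per kb, Slc12a2, Slc12a4, Slc12a5 and Slc12a7 together summed to 23.6 ± 1.56 at E9.5, 23.9 ± 3.88 at E14.5 and 49.97 ± 16.78 at P60 (SD, n = 3). The adult libraries held 45.5, 68.5 and 35.8, highest in replicate 2, the library rich in long transcripts. Slc12a7 (37.5% ± 4.06), Slc12a4 (33.9% ± 4.77) and Slc12a2 (24.8% ± 1.29) made most of the E9.5 sum. Slc12a5 then took 49.7% ± 6.44 at E14.5 and 73.7% ± 5.61 at P60, from 3.86% ± 0.422 at E9.5. Slc12a2 kept 23.0% ± 2.49 and 16.9% ± 3.86 of the later sums, and Slc12a4 12.4% ± 4.18 and 8.85% ± 1.69. Slc12a7 held 14.9% ± 1.03 and then 0.571% ± 0.0562 (all SD, n = 3). These are shares of the 4 genes alone. Of 4 other Slc12 genes listed, 2 were tested. Of these, 1 rose and 0 fell in the first step, against 34.0% and 30.7% of all genes. In the second, 1 rose and 1 fell, against 36.7% and 39.4%. Slc12a9 rose from 15.35 ± 0.910 to 30.5 ± 0.488 CPM and fell to 23.5 ± 1.17 CPM (edgeR adjusted p = 3.6e-05 and 0.015). Its fall was not called with upper quartile or median-of-ratios scaling, without the filter or with only the 2 stages compared.

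The genes that make, carry and clear glycine did not move as a block. Of 12 listed, among them the receptor subunit gene Glra4, 10 were tested, and Glra4 was not. Of the 10, 4 rose and 5 fell in the first step (median log2 -0.23, against 0.03 over all genes), and 3 rose and 5 fell in the second (median -0.44, against -0.06). Of all genes tested, 34.0% rose and 30.7% fell in the first step, and 36.7% rose and 39.4% fell in the second. The vesicular transporter Slc32a1, which loads both glycine and GABA into vesicles, went from 0.131 ± 0.120 CPM at E9.5 to 46.8 ± 3.36 at E14.5 (log2 8.44 ± 0.41, edgeR adjusted p = 4.4e-08) and to 83.0 ± 15.7 at P60 (0.83 ± 0.25, edgeR adjusted p = 0.011). The first of these steps stands beside 9.72 for Glra2. Slc6a5, a marker of glycinergic neurons, was at most 3.39 CPM in any library. It rose to E14.5 (log2 5.92 ± 1.37, edgeR adjusted p = 0.0030, and 4.62 to 6.47 with 1 library left out, lowest without E14.5 replicate 2). This step rests on 2 reads against 164, of which 121 were in E14.5 replicate 2, and the ratio of pooled reads was 72.3, with an exact 95% interval of 19.7 to 602 for counting error only. Slc6a5 then fell (-2.81 ± 0.95, edgeR adjusted p = 0.019), though the later stages overlapped and the fall was not called without E14.5 replicate 2 (-1.51, adjusted p = 0.15), P60 replicate 2 (0.074) or P60 replicate 3 (0.068). Of the other glycinergic markers, Lbx1 had no read at P60, and Pax2 and Pax8 were at most 0.133 CPM there. Lhx5 stood at 38.8 ± 3.18 CPM at E14.5 and 1.26 ± 0.444 CPM at P60, and this list of 6 genes, which includes Slc32a1, summed to 42.6 to 55.0, 85.0 to 101 and 68.9 to 100.3 CPM. The glial glycine transporter Slc6a9 (GlyT1) was at 11.8 ± 0.846, 12.1 ± 2.78 and 19.3 ± 10.1 CPM and passed the test in no step (edgeR adjusted p = 0.95 and 0.072). The second was called at an adjusted p of 0.043 with median-of-ratios scaling, 0.028 with upper quartile scaling and 0.036 in DESeq2. It was also called with a replicate block (0.047) and without the filter (0.049), and not without the 3 libraries that stood apart (log2 -0.033, adjusted p = 0.85). Another gene shares 27.8% of the Slc6a9 exons on the opposite strand.

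Other carriers and the glycine-metabolizing enzymes split by stage. Slc7a10 (Asc-1), an exchanger of small neutral amino acids including glycine, rose in both steps, from 0.492 ± 0.142 to 3.78 ± 0.330 and 33.0 ± 0.694 CPM (edgeR adjusted p = 6.0e-07 and 8.6e-08). A gene with 24534 reads in all libraries overlaps 17.9% of the Slc7a10 exons on the opposite strand. Slc38a5, another glycine carrier, rose from 3.98 ± 0.388 to 22.7 ± 5.76 CPM and fell back to 4.27 ± 1.07 CPM (edgeR adjusted p = 5.1e-06 and 4.9e-06). The serine hydroxymethyltransferases, which interconvert serine and glycine, fell in both steps: Shmt1 from 107 ± 2.99 to 16.6 ± 0.508 and 4.00 ± 0.477 CPM, and Shmt2 from 184 ± 11.7 to 72.9 ± 13.3 and 20.9 ± 3.53 CPM. Gldc, the decarboxylase of the glycine cleavage system, fell from 132 ± 6.96 to 42.1 ± 1.08 and 26.4 ± 6.47 CPM (edgeR adjusted p = 9.8e-06 and 0.0038).

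Of 13 genes examined that work with gephyrin at the inhibitory synapse, 9 rose and 2 fell from E9.5 to E14.5, when 34.0% of all genes rose and 30.7% fell (median log2 1.61, against 0.03 over all genes). From E14.5 to P60, 4 rose and 5 fell, against 36.7% and 39.4% of all genes (median -0.31, against -0.06). Slitrk3, an adhesion protein of inhibitory synapses, rose from 0.407 ± 0.170 to 21.4 ± 7.04 and 43.1 ± 9.20 CPM (edgeR adjusted p = 2.6e-07 and 0.0053). Iqsec3, which binds gephyrin, rose to E14.5 from 0.495 ± 0.180 to 42.5 ± 13.1 CPM (edgeR adjusted p = 5.1e-07) and was at 55.4 ± 23.9 CPM in the adult (edgeR adjusted p = 0.30).

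Several adhesion and accessory genes of the same synapse peaked at E14.5, unlike Glrb and Gphn. Nlgn2, the neuroligin of inhibitory synapses, stood at 101 ± 1.68, 308 ± 9.52 and 86.0 ± 34.6 CPM (log2 1.61 ± 0.24 and -1.84 ± 0.24, edgeR adjusted p = 1.5e-04 and 4.3e-05). Mdga1, which blocks neuroligin 2, stood at 9.73 ± 1.44, 156 ± 9.95 and 10.7 ± 4.19 CPM (edgeR adjusted p = 3.8e-07 and 3.5e-07). Lhfpl4, which links GABA-A receptors to neuroligin 2, stood at 23.1 ± 2.55, 255 ± 39.3 and 56.5 ± 21.2 CPM (edgeR adjusted p = 9.7e-07 and 1.6e-05). Insyn2a followed the same course, with 0.878 ± 0.199, 15.9 ± 0.279 and 4.91 ± 0.831 CPM (edgeR adjusted p = 6.8e-08 and 1.2e-05). Igsf9b passed the test in the second step, where it fell from 6.69 ± 3.76 to 0.901 ± 0.676 CPM (edgeR adjusted p = 9.1e-04), after 8.98 ± 1.85 CPM at E9.5.

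Of 7 metabolic partners of gephyrin, the genes of the molybdenum cofactor and its enzymes, 1 rose and 1 fell in the first step, against 34.0% and 30.7% of all genes. In the second 6 rose and 1 fell, against 36.7% and 39.4% (median log2 0.28 and 1.10 in the 2 steps, against 0.03 and -0.06 over all genes). Mocs2 rose in both (28.4 ± 1.73, 46.0 ± 7.22 and 98.9 ± 17.8 CPM) and Mocs1 fell in both (17.3 ± 0.0838, 11.3 ± 0.391 and 8.05 ± 1.07 CPM), the second fall at an edgeR adjusted p of 0.0093 and not called with upper quartile scaling (0.074). Xdh, xanthine dehydrogenase, was at 0.165 ± 0.154 and 0.0486 ± 0.0179 CPM in the embryonic stages and at 5.54 ± 0.654 CPM in the adult (log2 6.73 ± 0.52, edgeR adjusted p = 7.7e-07).

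**Figure D5:**
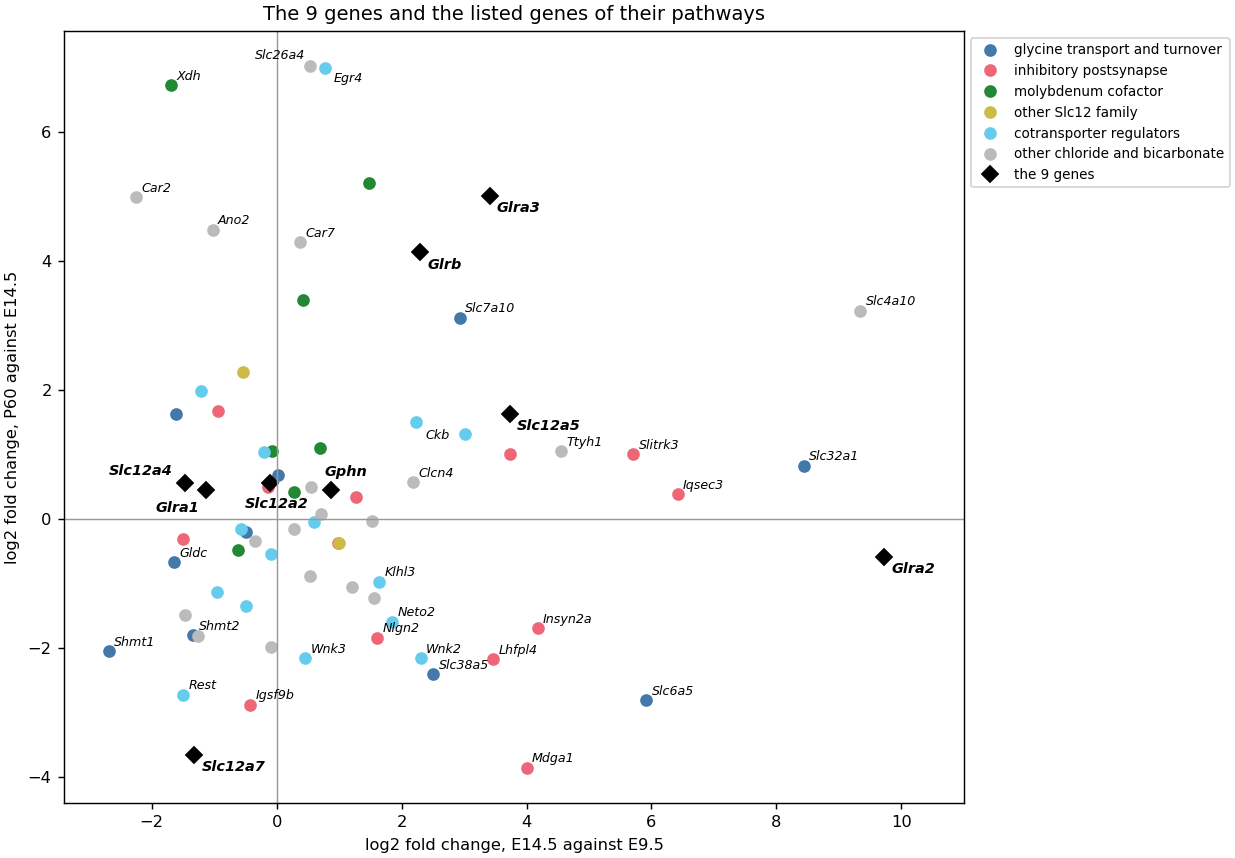
Log2 fold change from E9.5 to E14.5 (horizontal) against that from E14.5 to P60 (vertical) for the 9 genes (black diamonds) and for the tested genes of 6 lists around them (colors); both axes share the E14.5 libraries, so no relation between them is read. Slc12a5, Glrb and Glra3 lie at the upper right with Slc7a10 and Slitrk3, Glra2 lies at the far right just below 0, and Slc12a7 lies at the lower left with Rest.

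The kinases and regulators that act on NKCC1 and the KCCs went in both directions. Of 15 listed, 6 rose and 4 fell in the first step, against 34.0% and 30.7% of all genes (median log2 0.46, against 0.03). In the second, 5 rose and 8 fell, against 36.7% and 39.4% (median -0.54, against -0.06). Rest, the repressor of neuronal genes with reported sites in Slc12a5, fell in both steps, from 75.8 ± 5.47 to 26.9 ± 4.98 and 4.06 ± 0.690 CPM (log2 -1.49 ± 0.18 and -2.73 ± 0.19, edgeR adjusted p = 2.6e-05 and 3.5e-07). Egr4, a transcription factor reported to act on the same gene, was near 0 in the embryo (0.0546 ± 0.0187 and 0.0950 ± 0.0888 CPM) and at 12.8 ± 3.74 CPM in the adult (log2 7.0 ± 0.45, edgeR adjusted p = 1.9e-07). Their part in the rise of Slc12a5 was not tested. Ckb, brain creatine kinase and a KCC2 partner, rose in both steps, from 163 ± 20.5 to 764 ± 224 and 2160.4 ± 146 CPM (edgeR adjusted p = 4.7e-06 and 5.9e-05).

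The WNK kinases, which activate NKCC1 and inhibit the KCCs through SPAK (Stk39) and OSR1 (Oxsr1), differed from one another. Wnk1 fell in both steps, from 430.0 ± 36.9 to 222 ± 29.1 and 102 ± 27.0 CPM (edgeR adjusted p = 0.0016 and 3.9e-04). Its second step, log2 -1.13, stands beside a median of -1.19 over all genes with transcripts of at least 6 kb. Wnk2 rose from 39.1 ± 4.12 to 193 ± 38.2 CPM and fell to 43.3 ± 15.6 CPM (edgeR adjusted p = 1.9e-05 and 2.1e-05). Wnk3 was at 42.3 ± 11.6 and 58.2 ± 19.5 CPM before it fell to 13.0 ± 3.94 CPM in the adult (edgeR adjusted p = 0.20 and 1.0e-04), and its first step was called without E14.5 replicate 1 (0.72, adjusted p = 0.037). Stk39 rose in the second step, from 60.6 ± 6.47 to 125 ± 2.71 CPM (log2 1.04 ± 0.13, edgeR adjusted p = 3.3e-05), as Slc12a2 did. Oxsr1 fell in the first, from 125 ± 3.04 to 84.4 ± 0.774 CPM (edgeR adjusted p = 0.0011), and was at 75.6 ± 1.24 CPM in the adult. Neto2, a KCC2 auxiliary protein, rose from 28.8 ± 5.53 to 104 ± 19.3 CPM and fell to 34.5 ± 6.62 CPM while Slc12a5 rose on (edgeR adjusted p = 1.9e-05 and 4.1e-05). Klhl3, also of this list, rose from 3.28 ± 0.579 to 10.3 ± 1.97 CPM and fell to 5.21 ± 3.08 CPM (edgeR adjusted p = 0.0022 and 0.026). The later stages of Klhl3 overlapped, and its fall was not called without E14.5 replicate 2 or 3 or P60 replicate 1 or 3.

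Among other routes for chloride and bicarbonate, 8 of 18 rose and 4 fell in the first step (median log2 0.53, against 0.03 over all genes), and 8 rose and 6 fell in the second (median 0.03, against -0.06). These counts are near the shares of all genes, which were 34.0% and 30.7% and then 36.7% and 39.4%. Slc4a10, a sodium-dependent bicarbonate transporter of neurons, rose in both steps, more steeply than Slc12a5: 0.0213 ± 0.0369, 16.7 ± 5.49 and 156 ± 33.4 CPM (edgeR adjusted p = 1.6e-07 and 2.5e-06). Its first step rests on 2 reads at E9.5, and its size ran from log2 8.84 to 12.09 with 1 library left out. Ttyh1 rose from 7.22 ± 0.322 to 169 ± 6.01 and 350.0 ± 56.8 CPM, and Clcn4, a chloride-proton exchanger of intracellular membranes, from 41.2 ± 3.33 to 186 ± 16.4 and 277 ± 21.3 CPM. The carbonic anhydrases Car7 and Car2, enzymes that supply the bicarbonate that also passes through these receptors, were highest in the adult. Car7 went from 0.661 ± 0.242 at E14.5 to 13.1 ± 2.95 CPM (log2 4.29 ± 0.32, edgeR adjusted p = 6.0e-07), after 0.512 ± 0.166 CPM at E9.5. Car2, which oligodendrocytes also express, fell from 54.4 ± 8.60 CPM at E9.5 to 11.4 ± 1.46 CPM (log2 -2.26 ± 0.16, edgeR adjusted p = 6.2e-07) and then rose to 364 ± 16.2 CPM (5.0 ± 0.18, edgeR adjusted p = 6.1e-09). The anion exchanger Slc26a4 and the channel Ano2 were at most 0.515 CPM on average in the embryo and at 13.0 ± 3.47 and 5.71 ± 1.06 CPM in the adult (edgeR adjusted p = 1.1e-07 and 7.2e-07).

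For each gene, the most similar profiles among about 11962 genes with a mean of at least 5 CPM were taken as those with the smallest root mean square difference of centred log2 levels over the 9 libraries. Glra2 was nearest to Dner (0.23), Ppfia2 (0.30) and Scn3b (0.32), and Dner stood at 1.64, 227 and 162 CPM at the 3 stages. Slc12a5 was nearest to Csf1r (0.15), Gabrb1 (0.17) and Slc6a17 (0.18). Csf1r is a gene of microglia, and this nearness to a gene of another cell type is a likeness of curves in bulk tissue and no more. Glrb was nearest to Slco1a4 (0.16), Krt222 (0.20) and Sowaha (0.20), and Glra3 to Slc14a1 (0.16), Csgalnact1 (0.21) and Coch (0.22). Slc12a7 was nearest to Rps6ka6 (0.15), Atad5 (0.16) and Tram2 (0.16), and Slc12a4 to Snx33 (0.13), Ehd4 (0.15) and Pros1 (0.15). The flatter genes had closer neighbours, Gphn in Rab5b (0.07), Rmnd5b (0.08) and Fam120b (0.10), and Slc12a2 in Mcur1 (0.07), Snx19 (0.08) and Rhot1 (0.09). Glra1 had Itsn2, Rasgrp3 and Mtmr12 at 0.17 to 0.18, over levels too low for the likeness to be read.

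In order of level per kilobase of exon, the E9.5 libraries had Slc12a7 (8.86 ± 1.29 CPM per kb), Gphn (8.27 ± 0.501) and Slc12a4 (7.96 ± 0.899) at the top, none separated from the next beyond its spread, followed by Slc12a2 (5.87 ± 0.667), Slc12a5 (0.908 ± 0.0814), Glrb (0.731 ± 0.0705), Glra1 (0.235 ± 0.0511), Glra2 (0.0211 ± 0.0186) and Glra3 (0.00120 ± 0.00208). At E14.5 Glra2 led (18.6 ± 2.73), with Gphn (15.2 ± 3.12) and Slc12a5 (12.1 ± 3.38) within their spreads of one another, then Slc12a2 (5.44 ± 0.339), Glrb (3.59 ± 0.519) and Slc12a7 (3.56 ± 0.638), which lay within their spreads, then Slc12a4 (2.87 ± 0.452), Glra1 (0.106 ± 0.0865) and Glra3 (0.0164 ± 0.0155). In the adult the order was Glrb (63.3 ± 2.39), Slc12a5 (37.4 ± 15.2), Gphn (20.6 ± 2.70), Glra2 (12.4 ± 2.13), Slc12a2 (8.02 ± 1.01), Slc12a4 (4.24 ± 0.635), Glra3 (0.552 ± 0.143), Slc12a7 (0.281 ± 0.0749) and Glra1 (0.145 ± 0.139; all SD, n = 3). The order depends in part on the length used, and no choice of length removes the differences between libraries in long and short transcripts. With the longest transcript in place of all exons, Slc12a2 (9.84 CPM per kb) lay above Slc12a4 (8.94) and Gphn (8.68) at E9.5, and Glrb and Slc12a5 were level at 1.12. Slc12a7 (6.45) then lay above Glrb (5.52) at E14.5, and Slc12a2 (13.4) above Glra2 (12.4) at P60. By both lengths Slc12a7 was in the first place at E9.5 and the eighth at P60, where Glrb was in the first.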

How the data were processed

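Whole-tissue RNA from the mouse central nervous system was sequenced as 3 libraries at each of 3 stages. The values are raw read counts per gene as deposited by the authors. Trimmomatic 0.36 and STAR 2.5.2b are the tools, and mm10 the build, per the submitters' processing notes, and per the labels' protocols the cDNA was primed on poly(A) tails and amplified by PCR from very little RNA. The counting program, annotation and strand setting are not given in the sources used here. Overlapping genes on opposite strands may therefore share reads. Of 45706 identifiers, 45143 matched GENCODE M21 (GRCm38), which gave symbols, positions and exon lengths. Promoter windows of 7 of the 9 genes were read from RefSeq (GRCm38.p6).

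Genes were filtered with filterByExpr by stage (17971 kept), scaled by TMM and fitted in edgeR 4.0.16 (R 4.3.3) with the robust quasi-likelihood test, stage as the only factor, all 9 libraries in 1 fit, and Benjamini-Hochberg adjustment at 0.05. The SE is the log2 change divided by the root of the F statistic. The common dispersion of 0.0394 (a coefficient of variation of 19.9%), and not the depth of 30481975 to 35619093 counts, limits abundant genes. Ratios of 6 gene pairs were tested by exact permutation. The fit and the permutation test were tested on simulated data. Alternatives were 3 other scalings, DESeq2 1.42.0, no filter, each library left out, only the stages compared, a replicate block, other priors and lengths, and, chosen after seeing the data, leaving out the 3 libraries that stand apart.

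The 9 genes, the 6 lists of related genes (69 genes) and the 13 marker lists were chosen with earlier results of these data known. The text names all 9, from each list and consecutive step up to 4 genes that passed the test with the largest change (and, in the stage where they were higher, 5 CPM or more on average), listed genes that pair directly with a member, marker genes, and the 3 nearest profiles per member. Some genes of these lists are not reported here and are left out of every list count, sum and figure. Set tests were not used. No 2 libraries of a stage agreed within sampling noise.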

Additional observations from a re-analysis of the deposited data

How the results depend on the processing

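The numbers of the 9 genes that passed the test (7, 8 and 8 in the 3 comparisons) were 6 or 7, 7 or 8, and 8 under the 3 other scalings, DESeq2, no filter and only the stages compared, 6 to 7, 6 to 8 and 7 to 9 with 1 library left out, and 7, 7 and 9 without the 3 libraries that stand apart. Of 214 values of members under settings other than leaving out 1 library, 209 kept direction and call. With 1 library left out, 227 of 243 did, while 13 lost the call, 1 gained it and 2 changed sign. Whether the replicate numbers pair the samples was not settled. Deviations of same-numbered libraries correlated at -0.22 to 0.37, and those of differently numbered libraries at -0.41 to 0.34. Replicate 1 was poor in long transcripts at all 3 stages (log2 level of long minus short transcripts -0.53, -1.11 and -0.28). Replicate 2 was rich in them (0.25, 0.545 and 1.06). A replicate block gave 12121, 14015 and 15081 genes passing the test in place of 11613, 13681 and 14844, with the same 7, 8 and 8 members in number. By other scalings the median of all genes moved from E14.5 to P60 by -0.14 (library totals) or 0.16 (upper quartile), and from E9.5 to P60 by 0.15 (upper quartile). With the longest transcript as length, the share of Slc12a5 at E9.5 became 3.14%, and those of Slc12a7 at the 3 stages 44.5%, 19.1% and 0.795%. The sign of some steps that had not passed the test turned: from E9.5 to E14.5 Slc6a9 (-0.057 with median-of-ratios scaling, -0.041 in DESeq2, -0.081 to 0.21 with 1 library left out), Mocs3 (0.015 with library totals), Slc26a4 (-0.14 to 0.93 with 1 left out) and Egr4 (-0.28 to 1.20); from E14.5 to P60 Glra1 (-1.18 without the 3, -0.70 to 1.24), Slc6a9 (-0.033) and Iqsec3 (-0.25) without the 3, and Oxsr1 (0.0046 with upper quartile). From E9.5 to P60 these were Slc38a5 (-0.029 without the 3, -0.087 to 0.28 with 1 left out), Neto2 (-0.051 without the 3), Wnk2 (-0.22, -0.14 to 0.40), Mdga1 (-0.30, -0.18 to 0.40) and Nlgn2 (-0.58 to 0.026). The cause was not tested. Glra1 from E14.5 to P60 and Glra3 from E9.5 to E14.5 had no value with only 2 stages, since they did not pass the filter there. Among the 9 genes, depth limits Glra1, Glra3 in the embryo and Glra2 at E9.5, where a library held 0 to 25 reads.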
